A study of Mus musculus with 16 samples.

Results

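The diet by metformin interaction is the amount by which the response of a gene to metformin on HFD exceeds its response on NCD, that is, the difference between the HFD metformin and HFD control groups minus the difference between the NCD metformin and NCD control groups. It was taken over all 16 of the 16 libraries of the series, and 12506 of 22196 genes had enough counts to be tested. A positive value means that a gene was higher with metformin, relative to its control, on HFD than on NCD. The contrast itself was set by the labels and ran over every tested gene.

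The study measured RNA from whole inguinal mammary gland of mice in mid-lactation, as its title states, with a label of postnatal day 16 that does not say whose age it is. Its title names a high fat diet during lactation and metformin, and the design crosses them. The groups were NCD without drug (NCD control), NCD with metformin (NCD metformin), HFD without drug (HFD control) and HFD with metformin (HFD metformin), with 4 libraries each, and no genotype, strain, dose or route is given in the labels. The labels do not expand NCD and do not tie the libraries to separate animals, so the p-values reflect the spread among these libraries alone, and that spread may be technical.

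Metformin is a glucose-lowering drug that acts on mitochondria, where it inhibits respiratory complex I, and raises the activity of AMPK, a kinase that senses low cellular energy. The lactating mammary gland makes milk protein, lactose and fat at a high rate, and draws its fatty acids from its own synthesis and from the diet. A diet rich in fat can lower the need for synthesis of fatty acids in the gland. Whether diet and drug act on the same pathways here was not tested.

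Each library held 8649316 to 39156617 counts over genes, with a median of 28944266. The lowest totals were on HFD, 8649316 in HFD control 4 and 14508606 in HFD metformin 1, while NCD libraries held 25473962 to 39156617. Milk protein transcripts took 69.9 to 76.5% of the counts of a library. Luminal epithelial markers such as Krt8, Krt18 and Epcam were present in every library at a summed 518.9 to 702.0 CPM over 12 genes (CPM is a gene's count scaled to library size, here after TMM scaling, which sets libraries to a common level). NCD control 3 carried 4912 CPM of 18 skeletal muscle markers against 1.83 to 186.0 CPM elsewhere, and HFD metformin 4 carried 214.2 CPM of 32 cell cycle genes against 73.9 to 105.8 CPM elsewhere. In whole tissue, fewer cells of a type and less RNA per cell cannot be told apart.

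No gene passed the test of the interaction. With edgeR's quasi-likelihood test and Benjamini-Hochberg adjustment, 0 of 12506 genes had an adjusted p under 0.05 (0% of genes), and the lowest adjusted p was 0.180. At an unadjusted p under 0.05 there were 1243 genes, or 9.94%, where 5% of the genes tested would be 625. Of these, 821 had a positive interaction (6.56% of genes) and 422 a negative one (3.37%). DESeq2, run as an alternative, called 22 genes, or 0.192% of the 11484 it tested, and limma's voom called 0.

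The response to metformin itself was counted separately on each diet. On NCD, 1255 genes passed the same test (10% of genes), 501 higher (4.01%) and 754 lower (6.03%). On HFD, 21 genes passed (0.168%), 16 higher (0.128%) and 5 lower (0.0400%). Of those genes, 16, 76.2% of the HFD calls and 1.27% of the NCD calls, were called on both diets, and 20 of the 21 had the same sign on NCD. A gene called on one diet and not on the other is not shown to differ between them, since the test of that difference called 0 genes. The libraries with the fewest counts were on HFD, and the part of depth in the counts of calls was not tested. Single libraries moved these counts: without NCD metformin 2 there were 180 calls on NCD, without NCD control 1 there were 381, without NCD metformin 3 there were 511, without NCD control 2 there were 564, and without NCD control 3 there were 788. On HFD the count was 3 without HFD control 3, 4 without HFD metformin 2, 5 without HFD metformin 3, 6 without HFD control 4, 10 without HFD metformin 1 and 44 without HFD metformin 4.

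**Figure D1:**
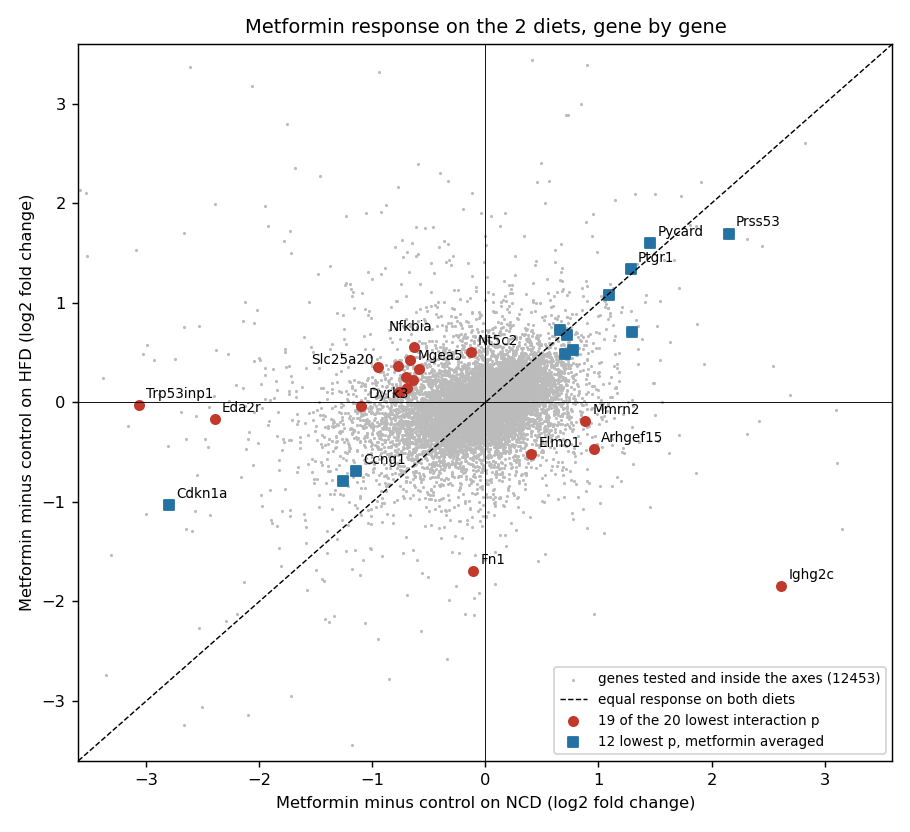
Log2 fold change of metformin against control on NCD (horizontal) and on HFD (vertical) for each gene, with 19 of the 20 named genes of lowest interaction p as red circles and the 12 genes of lowest p for metformin averaged over diets as blue squares. Most red circles lie left of zero and close to the horizontal line, and most blue squares lie near the dashed line of equal response; genes outside the axes are not drawn.

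Mgea5 had the lowest interaction p of all genes. It encodes O-GlcNAcase, the enzyme that removes the sugar O-GlcNAc from nuclear and cytosolic proteins, and lies on chromosome 19 from 45750259 to 45783837 on GRCm38 (ENSMUSG00000025220.8). On NCD it measured 56.8, 65.2, 53.5 and 57.3 CPM in the control libraries and 42.1, 35.9, 27.6 and 41.0 CPM with metformin. On HFD it measured 44.7, 49.5, 45.0 and 44.3 CPM in the control libraries and 68.4, 65.6, 49.5 and 63.6 CPM with metformin. All 4 metformin libraries were below the controls on NCD, and on HFD the lowest metformin library, at 49.5 CPM, was level with the highest control and the other libraries were above it. The log2 fold change was -0.67 ± 0.13 on NCD (SE, adjusted p = 0.0108) and 0.43 ± 0.13 on HFD (adjusted p = 0.185). The interaction was 1.10 ± 0.18 (SE), with a 95% interval of 0.71 to 1.48, an adjusted p of 0.180 in edgeR and of 0.000239 in DESeq2. Ogt, which encodes the transferase that adds the same sugar and was looked up after the values of Mgea5 were seen, had an interaction of 0.28 ± 0.24 (adjusted p = 0.737), so a difference for it was not detectable with these libraries.

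Nfkbia showed the same crossing. Its product, IkappaB-alpha, holds the transcription factor NF-kappaB in the cytoplasm, and its gene is itself switched on by NF-kappaB. The gene lies on chromosome 12 from 55489410 to 55492647 on the minus strand (ENSMUSG00000021025.8). The 250 bases before its start in the RefSeq promoter table (GRCm38.p6, chr12:55492648-55492897, minus strand, printed 5′ to 3′) are shown because they hold the kind of site through which NF-kappaB acts, with the single match to the NF-kappaB consensus in capitals.
Nfkbia: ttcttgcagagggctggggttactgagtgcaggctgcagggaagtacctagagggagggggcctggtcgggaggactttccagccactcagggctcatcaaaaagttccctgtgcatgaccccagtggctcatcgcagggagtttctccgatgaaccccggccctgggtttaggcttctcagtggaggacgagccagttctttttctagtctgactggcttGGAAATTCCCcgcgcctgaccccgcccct
The same consensus was found on either strand in 7.25% of 32851 promoters of this length, and the match is a description of the sequence, not a measured site. On NCD, Nfkbia measured 71.7, 73.8, 81.6 and 59.9 CPM without drug and 48.7, 43.2, 48.3 and 45.3 CPM with metformin, and the groups did not overlap. On HFD it measured 47.9, 64.7, 48.0 and 48.3 CPM without drug and 110.5, 70.5, 68.3 and 57.5 CPM with metformin, where HFD control 2 lay above the lowest metformin library. Nfkbia fell on NCD (-0.63 ± 0.17, adjusted p = 0.0303), measured 0.55 ± 0.17 on HFD (adjusted p = 0.189), and had an interaction of 1.18 ± 0.24 (SE; adjusted p = 0.334 in edgeR, 0.00396 in DESeq2). Without HFD metformin 1, the library with the highest value, the interaction was 0.95.

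Slc25a20, which encodes the carrier that moves acylcarnitines into mitochondria for oxidation, also lay on opposite sides of its controls on the 2 diets. It measured 7.04, 5.24, 7.01 and 3.97 CPM in NCD controls and 3.32, 3.88, 3.20 and 3.19 CPM in NCD metformin. It measured 3.70, 5.32, 4.68 and 4.80 CPM in HFD controls and 5.77, 6.37, 6.13 and 5.45 CPM in HFD metformin. The metformin group was below the controls on NCD and above them on HFD with no overlap on either diet. Its fold change was -0.78 ± 0.17 on NCD (adjusted p = 0.0162) and 0.37 ± 0.17 on HFD (adjusted p = 0.388), and the interaction was 1.14 ± 0.24 (adjusted p = 0.334 in edgeR, 0.0462 in DESeq2).

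Arhgef15 crossed in the other direction. It encodes a guanine nucleotide exchange factor found in vascular endothelium. It measured 1.36, 2.05, 1.59 and 2.18 CPM in NCD controls and 3.16, 4.28, 4.00 and 2.53 CPM in NCD metformin. It measured 2.95, 2.10, 2.81 and 2.68 CPM in HFD controls and 2.23, 2.02, 1.66 and 1.74 CPM in HFD metformin. The gene rose on NCD with no overlap (0.96 ± 0.20, adjusted p = 0.0144), while on HFD its groups overlapped by a single library (-0.47 ± 0.21, adjusted p = 0.360). The interaction was -1.43 ± 0.29 (adjusted p = 0.334 in edgeR, 0.0173 in DESeq2).

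**Figure D2:**
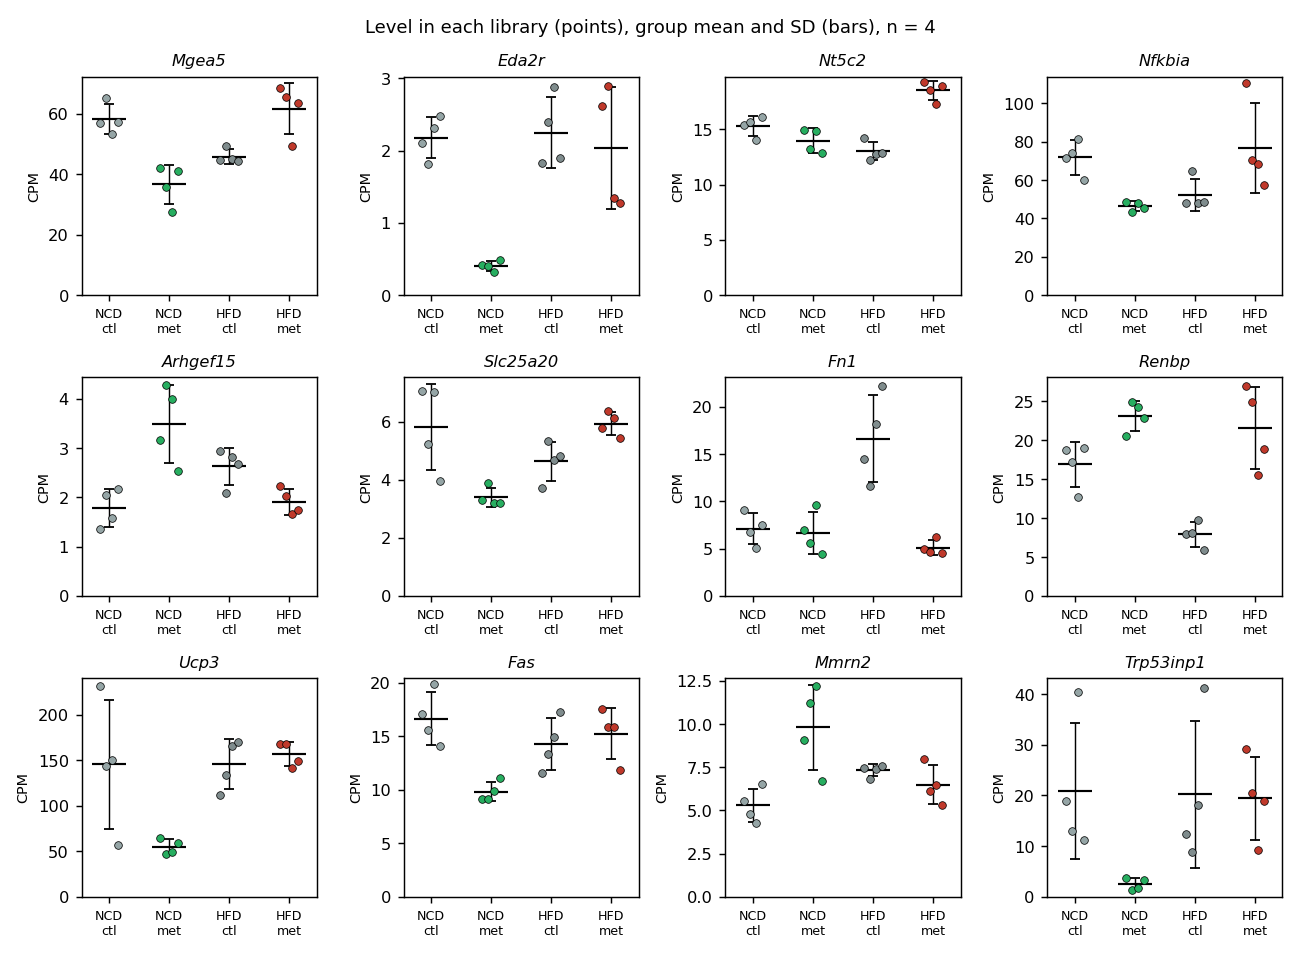
Level of 12 genes in CPM (vertical, starting at 0) in each of the 4 libraries of the 4 groups, with the group mean as a long bar and the SD as an error bar. Mgea5, Nfkbia and Slc25a20 are lower with metformin on NCD and at or above control levels on HFD, Eda2r drops to 0.407 CPM on NCD metformin alone, and Fn1 and Renbp differ mainly between the HFD groups.

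Opposite responses of this kind were rare. Counting genes with an unadjusted p under 0.05 on both diets, 33 had opposite signs (0.264% of genes) and 690 had the same sign. Of the 33, 24 were lower with metformin on NCD and higher on HFD, and 9 the reverse. Of the 33, 27 had a mean of at least 1 CPM and 4 were immunoglobulin genes, whose near-identical sequences share reads. The 10 with the lowest interaction p were Mgea5, Nfkbia, Arhgef15, Slc25a20, Zfp7, Elmo1, Ighg2c, Dnase1l2, Atrx and Mertk. The count was 20 without HFD metformin 1 and 21 without NCD metformin 2. By the stricter measure that the 4 metformin libraries lay beyond all 4 controls on each diet, in opposite directions, 5 genes qualified (0.0400% of genes), among them Mgea5, Slc25a20 and Atrx, against 262 that did so in the same direction. On NCD alone the groups did not overlap for 2320 genes (18.6%), and on HFD alone for 832 (6.65%).

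Among these, Mertk, a receptor kinase through which cells engulf dying neighbours, was at 17.99 ± 2.004 CPM without and 12.4 ± 2.67 with metformin on NCD (SD, n = 4), and at 16.8 ± 2.76 without and 23.4 ± 6.14 with it on HFD. In HFD metformin, libraries 1 and 2 held 30.1 and 27.04 CPM and libraries 3 and 4 held 17.9 and 18.4 CPM, so that group was itself divided. Elmo1, which works downstream of engulfment receptors to activate Rac, had the opposite interaction, -0.93 ± 0.22 (adjusted p = 0.334). It was at 3.36 ± 0.613 and 4.45 ± 0.504 CPM without and with metformin on NCD, and at 4.16 ± 0.458 and 2.91 ± 0.369 on HFD (SD, n = 4). Atrx, a chromatin remodeller, had group means of 30.6, 24.5, 28.9 and 33.5 CPM in the order NCD control, NCD metformin, HFD control and HFD metformin, and an interaction of 0.54 ± 0.13 (adjusted p = 0.334). In counts rebuilt from TPM the value of Atrx was 0.22. Ighg2c, a constant region of immunoglobulin heavy chains, had an interaction of -4.46 ± 1.06 (adjusted p = 0.334 in edgeR, 0.0462 in DESeq2), but its 16 values ran from 0.231 to 8.66 CPM and its groups overlapped on both diets.

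The commonest pattern among genes with a low interaction p was a drop on NCD with little change on HFD. Of the 821 genes with a positive interaction at an unadjusted p under 0.05, 801 were lower with metformin on NCD and 419 of these passed the test there. Their median log2 fold change was -0.67 on NCD and 0.12 on HFD. Of the 422 with a negative interaction, 406 were higher on NCD, with medians of 0.43 on NCD and -0.22 on HFD. These genes were picked by the contrast that the medians describe, so the medians are a description and not a test.

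Eda2r was the clearest case. It encodes a receptor of the tumour necrosis factor family that binds ectodysplasin A2 and is a known target of p53, and lies on chromosome X from 97333840 to 97377216 (ENSMUSG00000034457.10). It measured 2.11, 1.82, 2.32 and 2.48 CPM in NCD controls and 0.419, 0.401, 0.316 and 0.492 CPM in NCD metformin. It measured 1.82, 2.40, 2.88 and 1.90 CPM in HFD controls and 2.61, 2.89, 1.34 and 1.27 CPM in HFD metformin. No NCD metformin library came near any of the other 12, and the HFD metformin libraries fell on either side of their controls. The fold change was -2.40 ± 0.29 on NCD (adjusted p = 0.000717) and -0.17 ± 0.26 on HFD (adjusted p = 0.838), with an interaction of 2.23 ± 0.39 (adjusted p = 0.180 in edgeR, 0.00333 in DESeq2). Between the metformin groups alone, Eda2r was higher on HFD by 2.28 ± 0.29 on the log2 scale (adjusted p = 0.00406).

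p53 is the transcription factor that responds to DNA damage and other stress by arresting the cell cycle or starting cell death. Of 29 tested members of a list of its targets, 18 fell on NCD and 1, Ccng1, fell on HFD, with none higher on either diet. Over all genes, 6.03% fell on NCD and 0.0400% on HFD. The list was chosen with earlier results of these libraries known, as were those below, so its counts are a description and not independent support. The median log2 fold change of the list was -0.93 on NCD and -0.14 on HFD, against 0.00 over all genes on each diet. By sign alone, 27 members were below zero on NCD and 23 on HFD, where 6291 and 6193 of all 12506 genes were. Of the 29, 27 had a positive interaction, where 51.7% of all genes did. The list's median interaction was 0.47 (0.01 over all genes), and 14 members (48.3%, against 6.56% of all genes in that direction) reached an unadjusted p under 0.05, all positive, but none passed the adjusted test. Over 29 alternative settings and left-out libraries that median stayed between 0.45 and 0.61.

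The members with the lowest p were Eda2r, Fas, Trp53inp1 and Cdkn1a. Fas, the death receptor, measured 17.1, 15.6, 19.9 and 14.1 CPM in NCD controls and 9.18, 9.16, 9.90 and 11.1 CPM in NCD metformin. On HFD it measured 11.6, 13.3, 14.9 and 17.3 CPM without drug and 17.5, 15.8, 15.8 and 11.8 CPM with metformin. It fell on NCD with no overlap (-0.76 ± 0.14, adjusted p = 0.00988) and measured 0.10 ± 0.15 on HFD (adjusted p = 0.811), with an interaction of 0.86 ± 0.20 (adjusted p = 0.334).

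Cdkn1a, which encodes the cell cycle inhibitor p21, fell on NCD and did not pass on HFD. It measured 24.0, 10.9, 18.6 and 16.2 CPM in NCD controls and 2.13, 1.27, 4.32 and 2.30 CPM in NCD metformin. It measured 26.03, 11.4, 14.04 and 17.97 CPM in HFD controls and 8.92, 10.8, 5.41 and 8.90 CPM in HFD metformin. The metformin libraries lay below every control on each diet. Cdkn1a fell by 2.80 ± 0.35 on NCD (adjusted p = 0.000971) and its change on HFD was -1.03 ± 0.33 (adjusted p = 0.198). The interaction was 1.77 ± 0.47 (adjusted p = 0.334 in edgeR, 0.0462 in DESeq2). Trp53inp1, a stress protein that aids p53 and autophagy, had the largest interaction among the 4, 3.04 ± 0.72 (adjusted p = 0.334). It was at 20.9 ± 13.5 CPM without and 2.47 ± 1.21 with metformin on NCD, then 20.2 ± 14.5 without and 19.4 ± 8.13 with it on HFD (SD, n = 4), so the 12 libraries outside NCD metformin ranged widely.

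Ccng1, a cyclin induced by p53, passed the test on both diets. It measured 29.1, 24.4, 28.8 and 30.8 CPM in NCD controls and 11.8, 11.5, 12.2 and 15.4 CPM in NCD metformin, then 30.2, 25.2, 31.1 and 30.9 CPM in HFD controls and 18.1, 18.4, 16.2 and 20.1 CPM in HFD metformin. It fell by 1.15 on the log2 scale on NCD (adjusted p = 0.000156) and by 0.69 on HFD (adjusted p = 0.0202), with an interaction of 0.46 ± 0.16 (95% interval 0.11 to 0.80, adjusted p = 0.387).

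The upstream sequences of Cdkn1a and Ccng1 are printed because they hold a match to the decamer p53 motif. They were picked by low interaction p among p53 list members with a match. Sesn1, picked the same way, is not printed. For a gene with several starts, the one with the most matches was taken, so the matches below were fixed by the choice. The sequences are RefSeq's 250 bases before the start on GRCm38.p6 (Cdkn1a chr17:29090729-29090978, plus strand, and Ccng1 chr11:40755287-40755536, minus strand), 5′ to 3′, with matches in capitals.
Cdkn1a: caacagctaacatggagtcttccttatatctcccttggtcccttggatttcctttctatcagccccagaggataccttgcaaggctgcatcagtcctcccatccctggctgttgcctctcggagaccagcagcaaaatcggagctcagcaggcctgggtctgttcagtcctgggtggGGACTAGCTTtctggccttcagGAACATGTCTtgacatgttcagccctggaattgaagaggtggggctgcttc
Ccng1: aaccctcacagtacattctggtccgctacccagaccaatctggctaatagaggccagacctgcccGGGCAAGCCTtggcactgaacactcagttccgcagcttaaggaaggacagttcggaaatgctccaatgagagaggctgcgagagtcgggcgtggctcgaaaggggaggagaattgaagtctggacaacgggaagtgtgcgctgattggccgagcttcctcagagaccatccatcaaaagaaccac
Cdkn1a had 2 matches and Ccng1 had 1. The decamer occurred on either strand in 9 of 36 promoters of the p53 list (25%) and in 7.13% of all 32851 promoters. It was nearly as frequent in the cholesterol synthesis list, with 5 of 22 promoters (22.7%), so its share was not particular to the p53 list. The fatty acid synthesis list had 1 of 26 (3.85%) and the fatty acid oxidation list 0 of 29. A promoter without a match says only that these letters are not in this window.

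**Figure D3:**
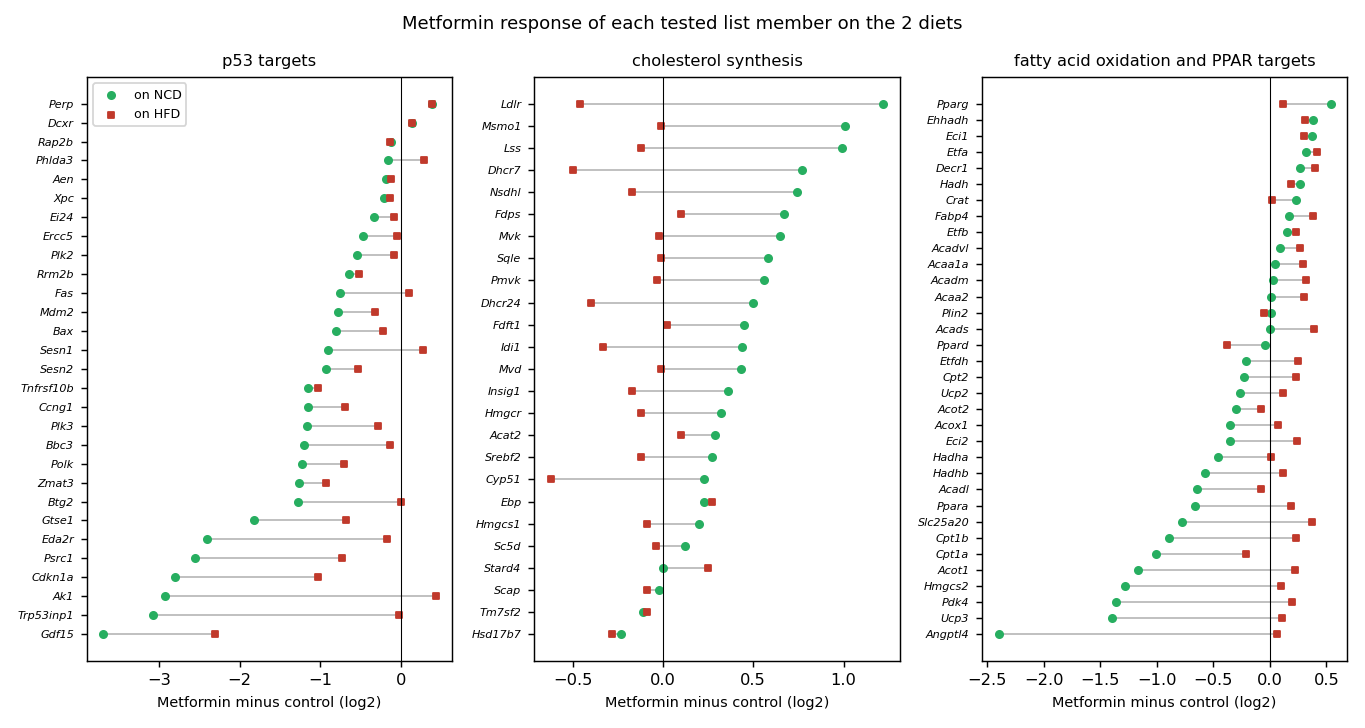
Log2 fold change of metformin against control (horizontal) for each tested member of 3 gene lists, with green circles for NCD, red squares for HFD and a grey line joining the pair. In the p53 and fatty acid oxidation lists most squares lie to the right of the circles, and in the cholesterol list most lie to the left.

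Genes of fatty acid oxidation and targets of PPAR, the nuclear receptors that sense fatty acids, also had mostly positive interactions. Of 34 tested, 8 fell and 1 rose on NCD (6.03% and 4.01% of all genes) and none passed on HFD. The median was -0.22 on NCD and 0.21 on HFD, with a median interaction of 0.39, and 27 of the 34 were positive. In all, 13 reached an unadjusted p under 0.05, all positive, which is 38.2% of the list against 6.56% of all genes in that direction. The median was between 0.26 and 0.46 over the alternatives, with 7 to 17 members at that p.

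Ucp3, a mitochondrial carrier protein that rises when fatty acids are burned, measured 231, 143, 150 and 57.2 CPM in NCD controls and 64.1, 47.0, 49.2 and 59.5 CPM in NCD metformin. On HFD it measured 112, 134, 165 and 170 CPM without drug and 168, 168, 141 and 149 CPM with metformin. NCD control 4 lay among the metformin libraries and the HFD groups overlapped. Ucp3 fell on NCD (-1.40 ± 0.28, adjusted p = 0.0112) and measured 0.11 ± 0.27 on HFD (adjusted p = 0.912). Its interaction was 1.51 ± 0.39 (adjusted p = 0.334 in edgeR, 0.0462 in DESeq2), and without NCD control 4 it was 1.78 with an adjusted p of 0.0355 (edgeR), the only call of the interaction in any edgeR fit. Acot1, a thioesterase that cleaves acyl-CoA, fell on NCD from 120 ± 56.1 to 53.7 ± 7.97 CPM (SD, n = 4; adjusted p = 0.0330) and was at 79.7 ± 32.3 and 93.0 ± 20.6 CPM without and with metformin on HFD. Etfdh, which passes electrons from fatty acid oxidation to the respiratory chain, did not pass on either diet and had an interaction of 0.46 ± 0.14 (adjusted p = 0.369).

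Genes of cholesterol synthesis had mostly negative interactions. The pathway is switched on by the transcription factor SREBP2 when membranes run short of sterol. Of 25 tested members, 6 rose on NCD (4.01% of all genes did), none fell and none passed on HFD. The median was 0.43 on NCD and -0.09 on HFD. In all, 22 had a negative interaction, with a median of -0.53, and 11 reached an unadjusted p under 0.05, all negative (44.0% of the list, against 3.37% of all genes in that direction). None passed the adjusted test, and the median stayed between -0.70 and -0.42 over the alternatives, with 8 to 17 members at that p.

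Lss, which closes squalene epoxide into lanosterol, measured 4.96, 5.92, 7.78 and 9.66 CPM in NCD controls and 14.98, 12.97, 18.8 and 9.62 CPM in NCD metformin. On HFD it measured 7.86, 6.29, 8.22 and 7.14 CPM without drug and 7.38, 6.33, 5.77 and 7.81 CPM with metformin. In all, 3 of 4 NCD metformin libraries lay above all controls, and the HFD groups were interleaved. Lss rose on NCD (0.99 ± 0.21, adjusted p = 0.0140), measured -0.12 ± 0.21 on HFD (adjusted p = 0.862) and had an interaction of -1.11 ± 0.30 (adjusted p = 0.334). Msmo1, a sterol methyl oxidase further along the pathway, rose on NCD from 4.66 ± 1.88 to 9.40 ± 1.02 CPM (SD, n = 4; adjusted p = 0.0140) and was at 4.93 ± 0.645 and 4.94 ± 0.866 CPM on HFD, an interaction of -1.02 ± 0.30 (adjusted p = 0.369). Dhcr7, the last enzyme before cholesterol, was at 3.67 ± 1.26 and 6.28 ± 1.76 CPM on NCD and at 4.43 ± 0.994 and 3.12 ± 0.572 CPM on HFD (SD, n = 4), with an interaction of -1.27 ± 0.36 (adjusted p = 0.337). Cyp51, which demethylates lanosterol, had -0.84 ± 0.26 (adjusted p = 0.369), from 0.23 on NCD and -0.62 on HFD.

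The sterol regulatory element TCACNCCAC, the letters bound by SREBP, was searched on both strands of the 250-base promoters. It was found in 1 of 22 promoters of the cholesterol list and in 1.05% of all promoters. The one with a match, chosen for that match, is Hmgcs1, the synthase that begins the pathway, whose own interaction did not pass (NCD 0.20, HFD -0.09). It is shown with the element in capitals (RefSeq, GRCm38.p6, chr13:119690101-119690350, plus strand).
Hmgcs1: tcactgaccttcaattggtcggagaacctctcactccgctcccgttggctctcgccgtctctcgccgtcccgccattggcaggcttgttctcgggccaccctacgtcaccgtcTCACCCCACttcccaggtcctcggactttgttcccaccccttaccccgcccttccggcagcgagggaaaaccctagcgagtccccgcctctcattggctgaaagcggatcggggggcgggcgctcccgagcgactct
No match in the other promoters says only that this spelling is not in this window.

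Of 24 genes of fatty acid synthesis tested, 3 rose on NCD (4.01% of all genes did) and none passed on HFD, with medians of 0.30 and 0.02, and a median interaction of -0.33. At an unadjusted p under 0.05, 5 members had a negative and 1 a positive interaction, against 3.37% and 6.56% of all genes. Slc25a1, the carrier that exports citrate from mitochondria for synthesis, rose on NCD from 73.3 ± 13.8 to 123 ± 23.99 CPM (SD, n = 4; adjusted p = 0.0171) and was at 67.4 ± 9.89 and 69.4 ± 9.91 CPM on HFD, an interaction of -0.70 ± 0.23 (adjusted p = 0.369). Acly, which splits citrate into acetyl-CoA, rose on NCD by 0.62 (adjusted p = 0.0211), measured 0.13 on HFD and had an interaction of -0.49 ± 0.21 (adjusted p = 0.449). Fasn, the fatty acid synthase, measured 2804, 3772, 2974 and 5370 CPM in NCD controls and 5810, 5757, 7819 and 3669 CPM in NCD metformin, then 5470, 4405, 4779 and 4612 CPM in HFD controls and 4999, 3899, 3463 and 4868 CPM in HFD metformin. It did not pass on either diet (adjusted p = 0.0718 on NCD and 0.799 on HFD), and its interaction was -0.79 ± 0.30 (adjusted p = 0.422).

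Markers of endothelium, the cells that line blood vessels, had a median of 0.37 on NCD and -0.05 on HFD and a median interaction of -0.50 over 16 genes. At an unadjusted p under 0.05, 7 had a negative and 1 a positive interaction, against 3.37% and 6.56% of all genes. The 16 markers summed to 92.3 to 125.5 CPM for NCD control, 107.0 to 182.7 for NCD metformin, 113.9 to 127.4 for HFD control and 106.0 to 144.2 for HFD metformin, and none was at 0 throughout a group. Kdr, the receptor for vascular endothelial growth factor, rose on NCD from 15.7 ± 3.18 to 26.4 ± 8.68 CPM (SD, n = 4; adjusted p = 0.0334), was at 17.8 ± 2.63 and 14.9 ± 1.80 CPM on HFD and had an interaction of -0.999 ± 0.29 (adjusted p = 0.355). Cldn5, a tight junction protein of vessels, was the positive member at an unadjusted p under 0.05, with an interaction of 1.19 ± 0.44 (adjusted p = 0.406). At any p, 4 of the 16 were positive and 12 negative. Mmrn2, an extracellular matrix protein of vessels that is not on the list, rose on NCD from 5.29 ± 0.974 to 9.80 ± 2.46 CPM (adjusted p = 0.0118) and was at 7.31 ± 0.347 and 6.47 ± 1.13 CPM on HFD (SD, n = 4), an interaction of -1.07 ± 0.25 (adjusted p = 0.334 in edgeR, 0.0462 in DESeq2). The part that endothelial content plays in these values was not tested.

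Immediate early genes are switched on within minutes of a stimulus. Of 29 tested, 7 fell on NCD (6.03% of all genes did) and none passed on HFD, with medians of -0.76 and -0.35. The median interaction was 0.54 and ran from 0.28 to 1.11 over the alternatives, and 6 members (20.7%, against 6.56% of all genes) reached an unadjusted p under 0.05, all positive. Dusp1, a phosphatase that shuts down MAP kinases, measured 125, 91.3, 186 and 120 CPM in NCD controls and 18.9, 21.5, 50.4 and 30.7 CPM in NCD metformin. On HFD it measured 155, 81.9, 189 and 91.6 CPM without drug and 152, 92.6, 47.3 and 109 CPM with metformin, so the spread within the HFD groups was wide. It fell by 2.10 on NCD (adjusted p = 0.00806), measured -0.37 on HFD (adjusted p = 0.716) and had an interaction of 1.73 ± 0.52 (adjusted p = 0.369). Fosl2, a member of the AP-1 family, ran from 17.8 to 66.8 CPM within NCD control and from 6.66 to 78.5 CPM within HFD metformin, and had an interaction of 2.91 ± 0.93 (adjusted p = 0.369). Maff, a small Maf transcription factor, had 2.96 ± 0.94, which was 1.92 without HFD metformin 1.

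Genes of inflammation and of involution, the regression of the gland after weaning that STAT3 drives, had a median of -0.40 on NCD and -0.18 on HFD over 28 members. Of these, 8 fell on NCD (6.03% of all genes did) and none passed on HFD. At an unadjusted p under 0.05, 7 had a positive and 2 a negative interaction, against 6.56% and 3.37% of all genes. Cd14, a receptor for bacterial lipopolysaccharide, fell on NCD from 48.7 ± 19.7 to 17.8 ± 2.69 CPM (SD, n = 4; adjusted p = 0.0134) and was at 39.0 ± 4.20 and 43.2 ± 21.2 CPM on HFD, with an interaction of 1.60 ± 0.42 (adjusted p = 0.334 in edgeR, 0.0462 in DESeq2). Cebpb, a transcription factor of the acute phase, fell on NCD from 125 ± 28.8 to 58.1 ± 17.9 CPM (adjusted p = 0.0244) and was at 81.2 ± 18 and 91.1 ± 37.6 CPM on HFD (SD, n = 4), an interaction of 1.26 ± 0.39 (adjusted p = 0.369). HFD metformin 1 held 73.2 CPM of Cd14 and 141.9 CPM of Cebpb, the highest of its group, and without it the interactions were 1.22 and 0.97. The 16 macrophage and monocyte markers summed to 123.0 to 183.9 CPM for NCD control, 94.4 to 127.4 for NCD metformin, 123.7 to 153.1 for HFD control and 120.6 to 159.9 for HFD metformin. None was at 0 throughout a group, though Itgam was at 0 CPM in HFD control 4. The part of these markers in the values above was not tested.

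Insulin and prolactin are hormones that act on the milk-producing cells. Of 23 tested members of the insulin, IGF and FOXO list, 5 fell on NCD (6.03% of all genes did) and none passed on HFD, with medians of -0.24 and 0.04 and a median interaction of 0.30. At an unadjusted p under 0.05, 5 had a positive and 1 a negative interaction, against 6.56% and 3.37% of all genes. Of 16 tested genes of prolactin, STAT5 and hormone receptors, 4 fell on NCD (6.03% of all genes did) and none passed on HFD. The medians were -0.14 on NCD and -0.03 on HFD, with a median interaction of 0.17. At an unadjusted p under 0.05, 3 had a positive interaction (18.75%, against 6.56% of all genes in that direction). Foxo3, a transcription factor that insulin holds inactive, fell on NCD from 22.8 ± 3.09 to 9.15 ± 2.17 CPM (SD, n = 4; adjusted p = 0.00743) and was at 27.5 ± 7.72 and 21.7 ± 6.81 CPM on HFD, an interaction of 0.98 ± 0.32 (adjusted p = 0.372). Rictor, a subunit of the kinase complex mTORC2, had 2.10 ± 0.63 (adjusted p = 0.369) at 0.401 to 3.77 CPM. Stat5b, which carries the prolactin signal together with Stat5a, fell on NCD from 51.9 ± 10.48 to 31.8 ± 5.40 CPM (adjusted p = 0.0364) and was at 37.4 ± 5.75 and 48.1 ± 15.8 CPM on HFD (SD, n = 4), an interaction of 1.07 ± 0.28 (adjusted p = 0.334). Without HFD metformin 1, which held 71.6 CPM of Stat5b, that value was 0.82.

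Further genes among the 20 with the lowest interaction p shared the drop on NCD. They were Zfp7, Zmym5 and Rfx7, which encode transcription factors or zinc finger proteins, Fbxo31, part of a ubiquitin ligase, Dyrk3, a protein kinase, Grb7, an adaptor of receptor tyrosine kinases, and Rsbn1. All 7 passed the test as lower on NCD, with log2 fold changes of -1.10 (Dyrk3) to -0.59 (Zfp7), and none passed on HFD, where they were between -0.03 (Dyrk3) and 0.35 (Rsbn1). Dyrk3 measured 21.4, 19.2, 19.4 and 19.8 CPM in NCD controls and 8.92, 7.99, 10.01 and 10.3 CPM in NCD metformin, with 13.6 to 21.4 CPM in HFD control and 11.99 to 21.5 CPM in HFD metformin. Grb7 measured 8.23, 8.66, 8.75 and 8.91 CPM in NCD metformin and 17.1, 18.5, 18.2 and 17.98 CPM in HFD metformin, groups that lay far apart. Their interactions ran from 0.83 (Zmym5) to 1.304 (Rsbn1), each with an adjusted p of 0.334 in edgeR. DESeq2 called 6 of the 7 (adjusted p = 0.0462 each) and gave Grb7 an adjusted p of 0.0635.

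On HFD and not on NCD, 5 genes passed the test, and they were named for that. They were Nt5c2, Fn1, Renbp, Capg and Tgfbr2. Nt5c2, a cytosolic nucleotidase that breaks down purine nucleotides, measured 15.4, 15.6, 14.03 and 16.1 CPM in NCD controls and 14.9, 13.2, 14.9 and 12.8 CPM in NCD metformin. It measured 14.2, 12.2, 12.8 and 12.8 CPM in HFD controls and 19.3, 18.5, 17.3 and 18.9 CPM in HFD metformin. HFD metformin stood above the other 12 libraries, which overlapped. Nt5c2 rose on HFD by 0.51 ± 0.09 (adjusted p = 0.0207), measured -0.13 ± 0.09 on NCD (adjusted p = 0.336), and had an interaction of 0.64 ± 0.12 (adjusted p = 0.293 in edgeR, 0.00602 in DESeq2).

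Fn1, which encodes the matrix protein fibronectin, stood apart in HFD control. It measured 9.06, 6.79, 5.08 and 7.55 CPM in NCD controls and 6.94, 5.58, 9.62 and 4.46 CPM in NCD metformin. It measured 14.4, 11.6, 18.2 and 22.2 CPM in HFD controls and 4.998, 4.63, 6.22 and 4.54 CPM in HFD metformin. Every HFD control library lay above every library of the other groups. Fn1 fell on HFD by 1.69 ± 0.24 (adjusted p = 0.00941), measured -0.11 ± 0.24 on NCD (adjusted p = 0.810), and had an interaction of -1.59 ± 0.34 (adjusted p = 0.334 in edgeR, 0.00725 in DESeq2). Between the controls it was 1.21 higher on HFD, which did not pass (adjusted p = 0.0863).

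Of 32 collagen and matrix genes, Fn1 included, 1 fell on each diet (6.03% of all genes did on NCD and 0.0400% on HFD), and the medians were -0.09 on NCD and -0.40 on HFD. The median interaction was -0.32 and 4 members (12.5%) reached an unadjusted p under 0.05, all negative. Of all genes, 3.37% did so in that direction and 9.94% in either direction. Col14a1, a fibril-associated collagen, was at 6.49 ± 0.771 and 5.65 ± 0.751 CPM on NCD and at 9.74 ± 3.16 and 5.16 ± 0.462 CPM on HFD (SD, n = 4), an interaction of -0.72 ± 0.26 (adjusted p = 0.392). The 12 fibroblast markers summed to 380.0 to 392.1 CPM for NCD control, 259.1 to 385.3 for NCD metformin, 321.2 to 559.1 for HFD control and 301.9 to 363.4 for HFD metformin, none was at 0 throughout a group, and their part in the matrix values was not tested. Tgfbr2, a receptor for TGF-beta, fell on HFD by 0.83 (adjusted p = 0.0393), measured -0.37 on NCD (adjusted p = 0.124) and had an interaction of -0.46 ± 0.22 (adjusted p = 0.499).

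Renbp, an epimerase that interconverts N-acetylglucosamine and N-acetylmannosamine, measured 18.7, 17.1, 12.8 and 19.03 CPM in NCD controls and 20.5, 24.8, 24.2 and 22.9 CPM in NCD metformin. It measured 7.94, 8.03, 9.74 and 5.92 CPM in HFD controls and 26.99, 24.9, 15.5 and 18.9 CPM in HFD metformin. The HFD controls lay below every other library, and metformin libraries on HFD spanned those on NCD. Renbp rose on HFD by 1.42 ± 0.18 (adjusted p = 0.00365), measured 0.45 ± 0.17 on NCD (adjusted p = 0.101), and had an interaction of 0.97 ± 0.25 (adjusted p = 0.334). In counts rebuilt from TPM the interaction was 0.27. Capg, an actin-capping protein, rose on HFD from 12.8 ± 1.06 to 22.2 ± 2.55 CPM (SD, n = 4; adjusted p = 0.0119) and was at 17.4 ± 2.26 and 19.2 ± 2.35 CPM on NCD, an interaction of 0.65 ± 0.17 (adjusted p = 0.334).

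**Figure D4:**
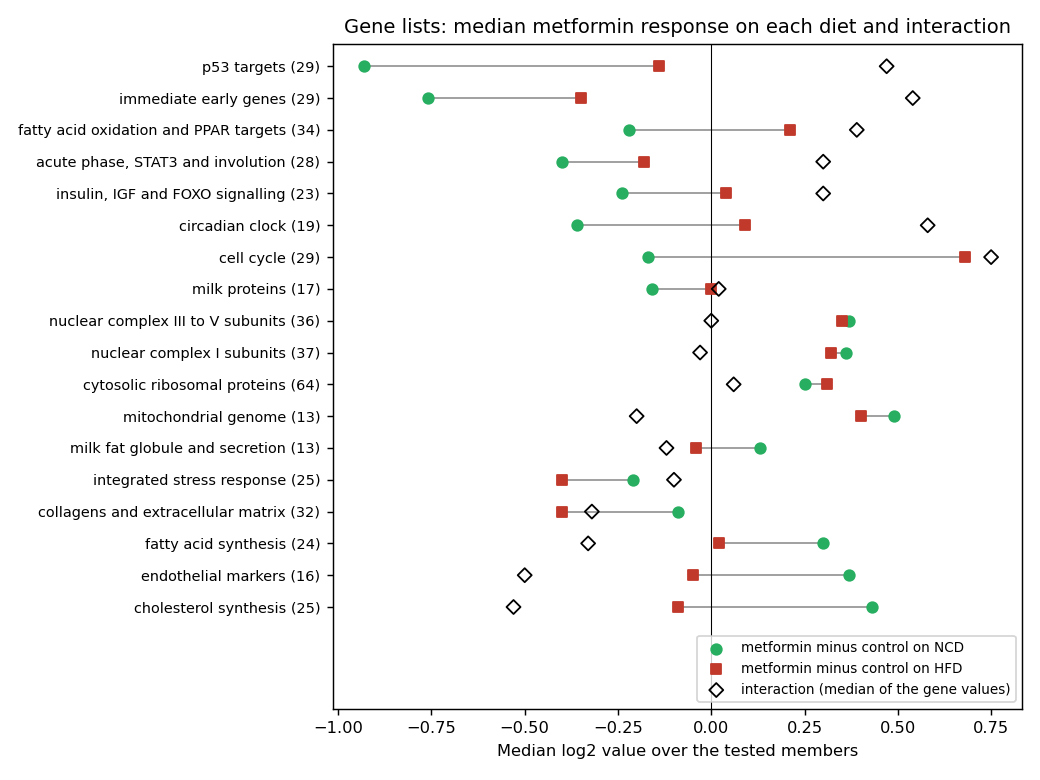
Median log2 fold change of metformin on NCD (green circles) and on HFD (red squares) and median interaction (open diamonds) for 18 gene lists, with the number of tested members in brackets. The p53 list runs from -0.93 on NCD to -0.14 on HFD and cholesterol synthesis from 0.43 to -0.09, while the respiratory chain and ribosomal lists lie at nearly equal values on both diets.

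Lists of respiratory chain and ribosomal genes had positive medians with metformin on both diets. Nuclear genes of complex I, the target of metformin in the respiratory chain, had a median of 0.36 on NCD and 0.32 on HFD over 37 members, and a median interaction of -0.03. Genes of complexes III to V had 0.37 and 0.35 over 36 members, and cytosolic ribosomal proteins had 0.25 and 0.31 over 64. In none of these 3 lists did a member reach an unadjusted p under 0.05 for the interaction, where 9.94% of all genes did. Members that passed as higher numbered 8, 10 and 4 on NCD and 1, 0 and 0 on HFD, in that order. Over all genes, 4.01% passed as higher on NCD and 0.128% on HFD. All 13 protein-coding genes of the mitochondrial genome were higher with metformin on each diet, in value, with medians of 0.49 and 0.40. Of these, 9 passed the test as higher on NCD (4.01% of all genes did) and 1 on HFD (0.128% of all genes). The median interaction was -0.20 and lay between -0.24 and -0.10 over the alternatives. Of the 13, 3 had a positive interaction and 10 a negative one. At an unadjusted p under 0.05 there was 1 (7.69%, against 3.37% of all genes in that direction), mt-Atp8 (-0.39 ± 0.13, adjusted p = 0.374). Mitochondrial genes have nuclear copies that can share reads.

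mt-Co1, a catalytic subunit of cytochrome c oxidase, measured 5930, 6153, 6891 and 5645 CPM in NCD controls and 10770, 11180, 9846 and 10430 CPM in NCD metformin. It measured 5822, 7751, 6600 and 6682 CPM in HFD controls and 9581, 9651, 9771 and 9625 CPM in HFD metformin. Metformin libraries lay above all controls on both diets. The gene rose by 0.78 on NCD (adjusted p = 0.000589) and by 0.52 on HFD (adjusted p = 0.0205), with an interaction of -0.25 and a 95% interval of -0.52 to 0.01.

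Of the 12 genes with the lowest p for metformin averaged over the diets several had similar fold changes on the 2 diets. Prss53, a serine protease, measured 2.68, 2.96, 2.95 and 3.40 CPM in NCD controls and 12.3, 13.5, 13.7 and 13.8 CPM in NCD metformin. It measured 3.08, 3.75, 3.19 and 1.67 CPM in HFD controls and 9.15, 13.2, 10.2 and 6.68 CPM in HFD metformin. It rose by 2.15 on NCD (adjusted p = 7.94e-05) and by 1.70 on HFD (adjusted p = 0.00297), and the interaction was -0.45 with a 95% interval of -1.04 to 0.13. Ptgr1, a reductase that inactivates prostaglandins and leukotriene B4, rose by 1.284 and 1.34, with an interval of -0.47 to 0.57 for the difference. Endog, a mitochondrial nuclease, rose by 1.10 and 1.08, with an interval of -0.54 to 0.50, and Bdh1, which interconverts ketone bodies, by 0.72 and 0.67, with an interval of -0.38 to 0.29. Pycard, the adaptor of inflammasomes, rose by 1.46 and 1.60, with an interval of -0.55 to 0.84. A p that misses the threshold does not show that responses were equal, and these intervals give the differences the data allow.

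**Figure D5:**
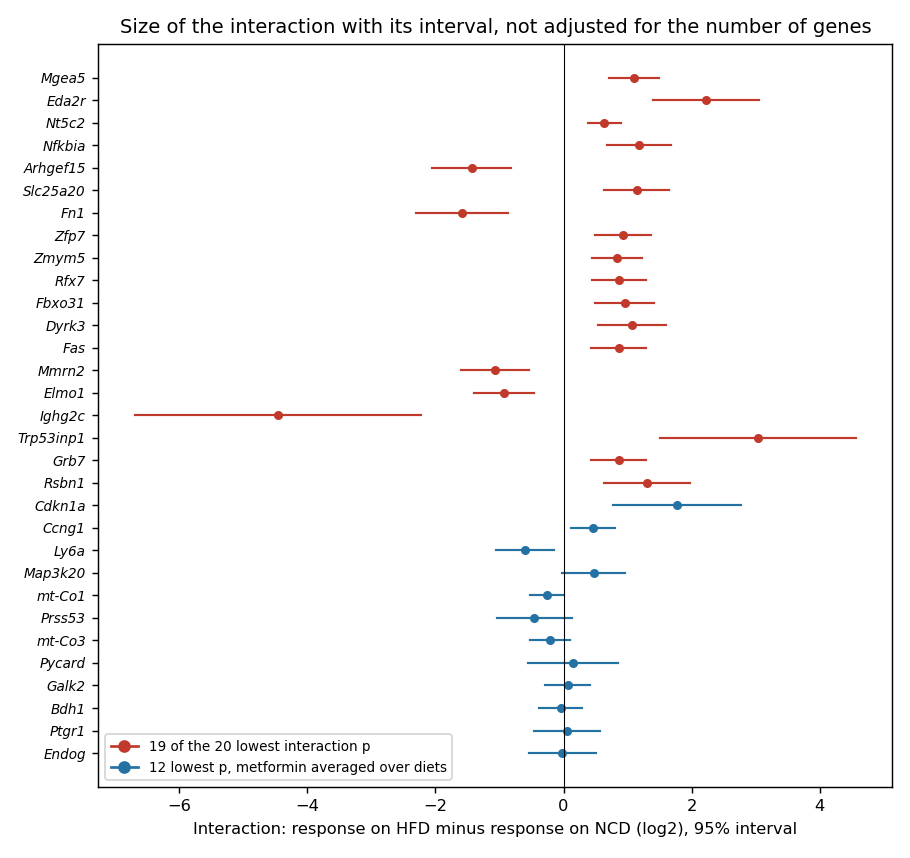
Interaction in log2 units with its 95% interval, not adjusted for the number of genes, for 19 of the 20 named genes of lowest interaction p (red) and the 12 genes of lowest p for metformin averaged over diets (blue). The red genes were picked by this contrast and lie away from zero for that reason; the blue intervals for Endog, Ptgr1, Bdh1, Galk2 and Pycard centre near zero.

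The size of the response on the 2 diets was also counted over all metformin genes. Of the 1424 genes called for metformin averaged over diets (11.4% of genes), 1048 had the larger response on NCD, or 73.6%, against 60.4% of all genes tested. Genes of the same libraries are not independent, so this share is a description with no test. Among the 728 that were higher with metformin (5.82% of genes) the share was 67.6%, with median responses of 0.43 on NCD and 0.34 on HFD. Among the 696 that were lower (5.57%) it was 79.9%, with medians of -0.70 and -0.37. An unadjusted interaction p under 0.05 was found for 223 of the 1424, of which 203 were larger on NCD and 20 on HFD. Without single libraries the count of 1424 was 713 (NCD metformin 2), 793 (HFD metformin 3), 795 (HFD control 4), 812 (HFD metformin 2), 824 (HFD control 3) and 837 (NCD control 1), and the share ranged from 63.9% to 79.4%.

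The precision of the design limits what an absent call can say. The interval of the interaction had a median width of 0.55 on the log2 scale to each side, and 7735 genes (61.9%) had an interval that lay within 1 of zero on both sides. In 44 genes the interval lay wholly beyond 1. These intervals are not adjusted for the number of genes, and none of the 44 passed the adjusted test.

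Over 17 milk protein genes the medians were -0.16 on NCD and 0.00 on HFD. At an unadjusted p under 0.05 there was 1 member (5.88%, against 6.56% of all genes in that direction), Spp1 (osteopontin). Its interaction of 3.70 ± 1.22 was 2.29 without NCD control 3 and 2.14 without HFD metformin 4. Csn2, beta-casein, had an interaction of 0.08 with an interval of -0.20 to 0.36, and Lalba, the lactose synthase subunit alpha-lactalbumin, -0.13 with an interval of -0.55 to 0.29. Of 13 genes for secretion of milk fat globules, 4 (30.8%, against 3.37% of all genes in that direction) had an unadjusted p under 0.05, all negative, and 1 to 4 did over the alternatives. Btn1a1, butyrophilin of the globule membrane, was at 1032 ± 294.1 and 1098 ± 137.8 CPM on NCD and at 1154 ± 62.5 and 844.3 ± 122.8 CPM on HFD (SD, n = 4), an interaction of -0.54 ± 0.22 (adjusted p = 0.446).

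The skeletal muscle and cell cycle lists had large values that moved with single libraries. Of 17 tested skeletal muscle markers, 15 reached an unadjusted p under 0.05, all positive, against 6.56% of all genes in that direction. The median interaction of the list was 8.48, and without NCD control 3 it was 2.52 with 1 member at that p. Acta1, skeletal actin, measured 3.61, 1.301, 414 and 0.239 CPM in the NCD controls. Of 29 cell cycle genes, 26 had a positive interaction, where 51.7% of all genes did, with a median of 0.75. At that p there were 6 members, all positive (20.7%, against 6.56% of all genes in that direction). Without HFD metformin 4 the median was 0.16 with 1 member at that p. Plk1, a mitotic kinase, measured 0.461, 0.675, 0.403 and 3.34 CPM in HFD metformin, and its interaction of 1.82 ± 0.76 was 0.56 without that library. Adipocyte markers had a median interaction of 0.01 that ran from -0.79 to 0.24 over the alternatives.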

How the data were processed

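RNA from 16 libraries was sequenced after extraction with a Qiagen RNeasy kit and a directional NEBNext Ultra II preparation, per the labels' protocols. The authors deposited, for each transcript and library, an estimated count and a TPM value, which are Salmon's columns per the file headers. Deposited TPM is relative to effective length. Salmon 1.3.0, DESeq2 1.28.1 and GRCm38.p6 are named, without role, per the submitters' processing notes, and no source used here gives the strand or bias options. Of 58204 transcripts listed, 57452 matched GENCODE M21, and the other 752 (0.165 to 0.218% of counts) were left out. For 56929 of 56929 transcripts compared, the length matched the coding length to within 3 bases, so UTRs and noncoding genes are not measured. Overlapping antisense genes and near-identical copies cannot be told apart.

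Estimated counts were summed to 22196 genes and rounded. edgeR 4.0.16 (R 4.3.3) fitted 4 group means to the 16 libraries (filterByExpr by group, TMM scaling) (12 residual and 4.38 prior degrees of freedom, common biological coefficient of variation 0.233). The quasi-likelihood test was two-sided, with Benjamini-Hochberg adjustment over 12506 genes, and genes under 0.05 were called. Values after ± are SE for log2 fold changes and SD for CPM. Libraries held 8649316 to 39156617 counts. No pair of libraries looked like a duplicate (lowest chi-square per degree of freedom 13.4 over 120 pairs). Alternatives were DESeq2 1.42.0, voom and voom with quality weights (limma 3.58.1), robust edgeR, other scalings and filters, counts rebuilt from TPM, a term for a gap in the title numbers (between 10 and 14), the 2 groups alone for each diet, and leaving out each library.

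The members and lists were chosen with earlier results of these data known. Named genes are the 20 with the lowest interaction p, the 10 reversals with the lowest, the 12 with the lowest averaged metformin p, up to 6 called on 1 diet only, up to 4 per list with the lowest p (means of at least 1 CPM and no clone name outside lists), and 22 fixed genes. Of the first 20, 1 is not reported here. Hmgcs1 and Ogt were named after values were seen. Promoters are RefSeq's and gene symbols are those of GENCODE M21. Promoters were matched to lists by symbol, which found 18 of the 26 listed cholesterol genes and 24 of the 32 listed p53 targets. Intervals are at the 95% level.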

Additional observations from a re-analysis of the deposited data

Results flagged for a closer look

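Of 176 groups of 4 libraries checked for a value far from the other three, 12 were picked out, where chance gives about 1 in 20, or 9. In HFD control, library 2 was high for Mgea5 (49.5 CPM, others 44.3 to 45.0) and for Nfkbia (64.7, others 47.9 to 48.3) and low for Ccng1 (25.2, others 30.2 to 31.1) and for summed endothelial markers (114, others 126 to 127). Library 3 of the same group was high for Elmo1 (4.84 CPM, others 3.88 to 4.02). HFD metformin 1 was high for Fbxo31 (65.4 CPM, others 38.7 to 42.4). NCD control 3 was high for Ly6a (11.9 CPM, others 9.25 to 9.64) and for summed adipocyte markers (2460 CPM, others 1230 to 1370). Summed skeletal muscle markers had a high library in every group: NCD control 3 held 4910 CPM, NCD metformin 2 held 37.1, HFD control 3 held 26.9 and HFD metformin 1 held 186. No gene's response differed between diets by the adjusted edgeR test.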

How the results depend on the processing

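No interaction gene was called in any edgeR or voom setting run with all libraries, and leaving out 1 library gave 0 to 1 calls, while DESeq2 gave 22. Genes at an unadjusted p under 0.05 numbered 997 to 1503 without 1 library. Calls on HFD, 21, were 160 with DESeq2, 7 with library sizes alone, 9 in counts rebuilt from TPM, 1 with only the HFD groups, 4 without NCD control 3 and HFD control 4, 1 without HFD control 4 and HFD metformin 1 (both pairs chosen after seeing the data), and 3 to 44 without 1 library. Calls on NCD, 1255, were 2137 with voom quality weights, 711 from TPM and 180 to 1459 without 1 library. Averaged calls were 843 without the first pair and 713 to 1503 without 1 library. The share larger on NCD was 76.2% with quality weights, 68.9% from TPM, 79.7% and 76.1% without the pairs, and 63.9 to 79.4% without 1 library, and reversals numbered 20 to 46. The cause was not tested. Library sizes alone moved the median of all genes to -0.07 on each diet and left it at 0.01 for the interaction.

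Of 208 named genes, 191 kept the sign of their interaction in every setting. The others lay near zero or varied widely. Signs turned for Wap (-0.00 with library sizes alone and with the title number term, -0.08 and -0.11 without the pairs), Lor (-0.16 in voom, -0.18 with quality weights), Nnat (-0.10 with weights, -0.69 without the first pair), Ptgr1 (-0.03 with weights and without the second pair), Acta2 (-0.08 with weights, -0.01 without the first pair), Krt10 (-0.71 from TPM), Endog (0.01 from TPM) and Lpl (0.02 without the second pair). Leaving out 1 library at a time also turned signs, over ranges of -0.17 to 0.33 for Acta2, -1.74 to 0.18 for Adipoq, -0.12 to 0.04 for Bdh1, -0.00 to 1.31 for Cd79b, -0.00 to 0.15 for Csn2, -0.15 to 0.13 for Endog, -0.02 to 0.14 for Galk2, -0.63 to 0.26 for Lep, -0.51 to 0.48 for Lor, -0.79 to 1.80 for Nnat, -0.13 to 0.17 for Ptgr1, -0.03 to 0.27 for Pycard, -1.88 to 0.86 for S100a8, -1.19 to 0.02 for Slc16a1 and -0.10 to 0.11 for Wap. No paired analysis was possible because the labels give no replicate numbers shared between groups.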
